A study of Mus musculus with 15 samples.

Results

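The miRNAs miR-132 and miR-212 are read from neighbouring hairpins on mouse chromosome 11, and each hairpin gives a mature miRNA from its 5p and its 3p arm. The 4 mature products were chosen by name, as mmu-miR-132-3p, mmu-miR-132-5p, mmu-miR-212-3p and mmu-miR-212-5p (written without the species prefix hereafter), out of 683 distinct names in the deposited count tables, and all 4 passed the filter on low counts that left 652 names for testing. They were measured by small RNA sequencing of 15 mouse brain samples, 5 in each of 3 groups. The sham group had a sham operation and was gavaged with distilled water. The ICH group had an intracerebral haemorrhage and received the same gavage. The BYHWD group had the haemorrhage and was gavaged daily for 14 days with Buyang Huanwu decoction, a herbal preparation of traditional Chinese medicine, at 6.19 g/kg. All mice were labelled wild type (WT), and the ipsilateral basal ganglia were taken at day 14 after perfusion with saline. The sources used here give neither strain nor age, nor how the bleed was produced. According to the extraction text the RNA came from pelleted exosomes, while the tissue label is brain, and the labels do not say which was profiled. Rats are mentioned once in the description of the housing.

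In neurons, the locus of miR-132 and miR-212 is transcribed in response to synaptic activity and neurotrophins through the transcription factor CREB. The 3p arm of miR-132 is known to promote dendrite growth and spine formation by repressing the GTPase-activating protein p250GAP. It is also known for repressing acetylcholinesterase, in the control of inflammation, and for its induction by light in the suprachiasmatic nucleus.

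The mature sequences are shown because the 3p arms share a seed, bases 2 to 8, which pairs with target mRNAs and which is in capitals. They are from RefSeq, build GRCm38.p6, and are written 5′ to 3′.
miR-132-3p: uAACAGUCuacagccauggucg
miR-212-3p: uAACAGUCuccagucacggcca
miR-132-5p: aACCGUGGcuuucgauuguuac
miR-212-5p: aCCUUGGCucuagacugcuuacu
All 4 lie on the plus strand, at chr11:75173723-75173744 for miR-132-3p, chr11:75173443-75173464 for miR-212-3p, chr11:75173686-75173707 for miR-132-5p and chr11:75173403-75173425 for miR-212-5p. Among the mouse mature miRNAs of the RefSeq table, the seed AACAGUC was held by 2 names, miR-132-3p and miR-212-3p. These arms had the same base at 17 of 22 positions, the first 9 included. Counted from the 5′ end, with the base of miR-132-3p first, they differed by A10C, C14U, U17C, U20C and G22A. The seeds of the 5p arms differed from each other and from that of the 3p arms. Read from the first base of each, the 5p arms matched at 9 of 22 positions, and with miR-132-5p read from its base 2 they matched at 14 of 21.

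The hairpins are shown with the mature arms in capitals, 5p before 3p, to give the order of the products along the locus.
Mir212: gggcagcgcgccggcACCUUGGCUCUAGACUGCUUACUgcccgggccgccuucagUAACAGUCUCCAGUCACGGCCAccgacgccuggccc
Mir132: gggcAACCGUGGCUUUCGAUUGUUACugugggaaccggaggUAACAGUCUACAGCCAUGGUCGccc
Mir212 covers chr11:75173388-75173478 (91 nt) and Mir132 covers chr11:75173682-75173747 (66 nt), with 203 nt between them. In the GENCODE M21 annotation of GRCm38, both lie in the intron between exons 1 and 2 of the noncoding gene 1700016P03Rik, which runs on the same strand (chr11:75172560-75177633).

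Each library held 4684611 to 9860236 counts after 1 entry per name was kept. Levels are given as CPM, the reads of a miRNA relative to its library's total, scaled by the trimmed mean of M-values (TMM), which corrects library size for composition. Sham 4 and sham 5 stood apart, with TMM factors of 0.667 and 0.721 against 0.954 to 1.195 in the other libraries. The deposited names and counts are out of step by 1 row, so each value rests on moving the names. The counts of miR-132-3p stand beside the name miR-21a-3p in the tables, those of miR-132-5p beside miR-99b-5p, those of miR-212-3p beside miR-132-3p and those of miR-212-5p beside miR-673-3p. Each of the 4 had 1 entry per table and shared its counts with no other name.

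The 4 miRNAs kept 1 order of abundance in 15 of 15 libraries, with miR-132-3p first, then miR-132-5p, miR-212-5p and miR-212-3p. Their means over the 15 libraries were 1325, 950.7, 521.6 and 178.5 CPM, which ranked them 80, 96, 128 and 195 of the 652 miRNAs tested by abundance. The ranges of miR-132-3p (900.8 to 1976 CPM) and miR-132-5p (572.8 to 1747 CPM) overlapped across libraries, as did those of miR-132-5p and miR-212-5p (348.0 to 702.5 CPM). The lowest value of miR-212-5p was above the highest of miR-212-3p (257.6 CPM). On library totals without TMM factors these ranges overlapped, at 232.2 to 736.5 CPM for miR-212-5p and 88.49 to 273.1 CPM for miR-212-3p. All are 22 or 23 nt long, so their read counts need no correction for length, but the efficiency of adapter ligation to each end sequence was not tested. Raw counts ran from 684 to 2151 for miR-212-3p, the least abundant, and from 4444 to 15792 for miR-132-3p.

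miR-132-3p, the main arm of miR-132, did not separate the groups. In sham libraries 1 to 5 it was at 1180.2, 1976, 1308, 1011 and 1677 CPM. In ICH libraries 1 to 5 it was at 1816, 1137, 1169, 1453 and 1122 CPM. In BYHWD libraries 1 to 5 it was at 1276, 1285, 1191, 1379 and 900.8 CPM. Sham 2 was the highest of the 15 and BYHWD 5 the lowest, and 9 of the 10 haemorrhage libraries lay within the sham range. On library totals without TMM factors the lowest was sham 4, at 674.8 CPM, with BYHWD 5 at 948.6 CPM. The means were 1430.4 ± 391 in sham, 1339 ± 299 in ICH and 1206 ± 183 in BYHWD (SD, n = 5 each).

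miR-132-5p, the opposite strand of the same hairpin, varied most among the sham libraries. In sham libraries 1 to 5 it was at 1036, 1747, 909.4, 572.8 and 1032 CPM. In ICH libraries 1 to 5 it was at 1060.0, 749.4, 926.4, 1159 and 826.3 CPM. In BYHWD libraries 1 to 5 it was at 878.8, 829.0, 1007, 818.9 and 709.2 CPM. Both extremes were sham libraries, sham 2 at the top and sham 4 at the bottom, so all 10 haemorrhage libraries lay between them. The means were 1059 ± 428 in sham, 944.2 ± 167 in ICH and 848.7 ± 108 in BYHWD (SD, n = 5 each). The coefficient of variation was 40.4% in sham, 17.7% in ICH and 12.8% in BYHWD. These 3 values were not tested against each other.

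miR-212-3p, which carries the same seed as miR-132-3p, was the lowest of the 4 in each library. In sham libraries 1 to 5 it was at 166.8, 229.1, 178.2, 132.6 and 207.9 CPM. In ICH libraries 1 to 5 it was at 257.6, 162.1, 144.0, 195.0 and 161.7 CPM. In BYHWD libraries 1 to 5 it was at 164.9, 181.1, 132.02, 196.9 and 167.2 CPM. ICH 1 was above the sham range and BYHWD 3 just below it, and the other 8 haemorrhage libraries were inside. On library totals without TMM factors BYHWD 3, at 135.3 CPM, was above sham 4, at 88.49 CPM. The means were 182.9 ± 37.3 in sham, 184.1 ± 45.0 in ICH and 168.4 ± 24.0 in BYHWD (SD, n = 5 each).

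miR-212-5p was the more abundant arm of miR-212 throughout. In sham libraries 1 to 5 it was at 467.9, 665.3, 564.4, 348.0 and 702.5 CPM. In ICH libraries 1 to 5 it was at 621.8, 462.2, 413.0, 546.9 and 484.3 CPM. In BYHWD libraries 1 to 5 it was at 519.6, 515.1, 468.2, 612.2 and 433.0 CPM. Sham 5 was the highest and sham 4 the lowest of the 15, and all 10 haemorrhage libraries lay within the sham range. The place of sham 5 depended on the scaling. On library totals without TMM factors it stood at 506.5 CPM, rank 6 from the lowest, and sham 2 was the highest at 736.5 CPM. The means were 549.6 ± 145 in sham, 505.6 ± 80.8 in ICH and 509.6 ± 67.6 in BYHWD (SD, n = 5 each).

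**Figure D1:**
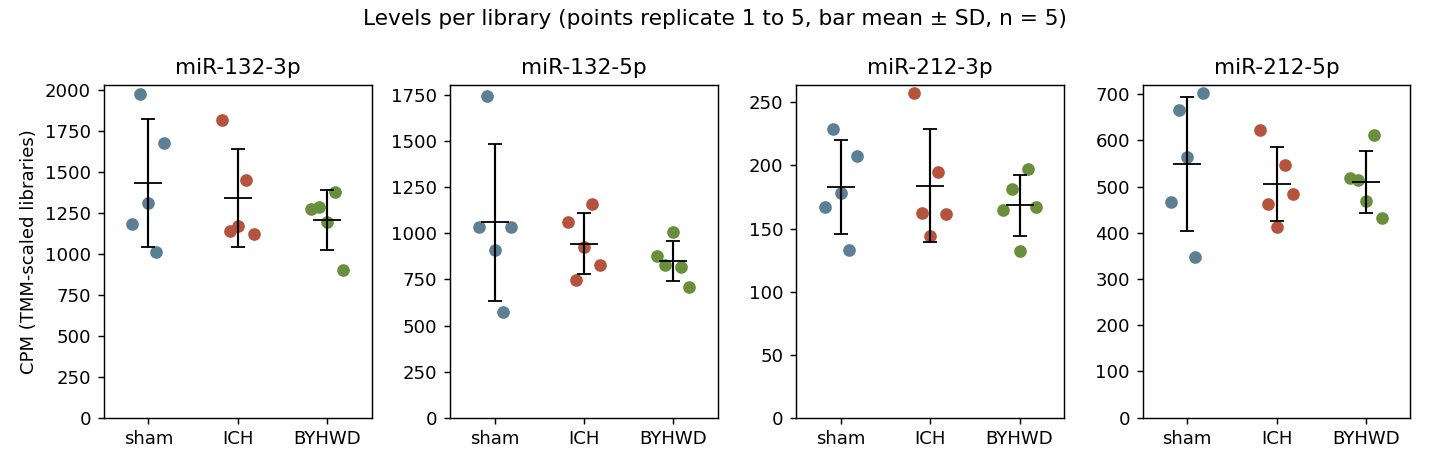
Level of each of the 4 mature miRNAs in every library (TMM-scaled CPM, y axis) by group (x axis), 1 point per library, with the group mean and SD. The groups overlap for all 4. Sham 4 marks the lower edge of the sham spread for each, and sham 2 the upper edge, except for miR-212-5p, where sham 5 does.

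Haemorrhage against sham asks whether the locus stood at another level 14 days after the bleed. None of the 4 passed the test at an adjusted p under 0.05, while 0.767% of all 652 miRNAs (5) did, all 5 of them higher. None of the 4 had an unadjusted p under 0.05 either, in edgeR, DESeq2 or limma-voom. By edgeR, the log2 fold change of miR-132-3p was -0.10 (SE 0.19, 95% interval -0.49 to 0.30, adjusted p = 0.801) and that of miR-132-5p was -0.17 (SE 0.22, -0.63 to 0.30, adjusted p = 0.69). That of miR-212-3p was 0.01 (SE 0.18, -0.37 to 0.39, edgeR adjusted p = 0.986) and that of miR-212-5p was -0.12 (SE 0.18, -0.49 to 0.25, edgeR adjusted p = 0.716). The median of the 4 was -0.11 beside -0.02 over all miRNAs. In tissue of this kind, fewer cells of a type and less RNA per cell cannot be told apart, and no source says whether the samples were dissected or sequenced in separate batches. The signs of the miR-132 arms rested on 1 library, since without sham 2 the values of miR-132-3p and miR-132-5p were 0.05 and 0.09. With 1 library left out these values ran from -0.245 to 0.052 and from -0.326 to 0.091. Over the other settings of the fit they ran from -0.162 to 0.001 and from -0.392 to -0.12. The count over all miRNAs also moved, from 5 to 31 without sham 3, 12 without sham 2 and 11 without ICH 4.

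Decoction against water after haemorrhage asks whether the treatment moved the locus. Again 0 of the 4 were called, where 0% of all 652 miRNAs were called by edgeR, with 31 at an unadjusted p under 0.05. DESeq2 and limma-voom also called 0 of the 652, with 29 and 44 at an unadjusted p under 0.05. The log2 fold changes were -0.15 for miR-132-3p (95% interval -0.55 to 0.25), -0.15 for miR-132-5p (-0.62 to 0.31), -0.13 for miR-212-3p (-0.51 to 0.25) and 0.01 for miR-212-5p (-0.36 to 0.38). Their edgeR adjusted p-values were 0.976 to 0.996. The median of the 4 was -0.14 beside 0.00 over all miRNAs, and 4 of 5 BYHWD libraries lay within the ICH range for miR-132-3p, miR-132-5p and miR-212-3p, and 5 of 5 for miR-212-5p.

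BYHWD against sham shares its libraries with both comparisons above. Here 0 of the 4 were called against 2.30% of all 652 (15, of which 13 were higher), and 0 had an unadjusted p under 0.05 in edgeR, DESeq2 or limma-voom. The values were lowest for the miR-132 arms, at -0.25 for miR-132-3p (SE 0.19, 95% interval -0.65 to 0.15, edgeR adjusted p = 0.513) and -0.32 for miR-132-5p (SE 0.22, -0.78 to 0.14, edgeR adjusted p = 0.446). As folds these were 0.843 and 0.801. miR-212-3p was at -0.12 (-0.50 to 0.26) and miR-212-5p at -0.11 (-0.48 to 0.26). Without sham 2 the values shrank to -0.10 for miR-132-3p and -0.06 for miR-132-5p, and without sham 4 they were -0.37 and -0.50. With sham 4 and sham 5 left out, miR-132-5p stood at -0.54 with an unadjusted p of 0.0122 and an edgeR adjusted p of 0.192, and it was not called. Over all alternatives tried for this value the adjusted p ran from 0.192 to 0.932. The count over all miRNAs was 2 without sham 4, 3 without BYHWD 5, 5 without sham 5, 8 without BYHWD 2, 9 without BYHWD 4, 44 without sham 1 and 54 without sham 3.

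With both haemorrhage groups (10 libraries) set against sham, 0 of the 4 were called, where 7.67% of all 652 were (50, of which 22 were higher and 28 lower). None of the 4 had an unadjusted p under 0.05 in edgeR, DESeq2 or limma-voom. The log2 fold changes were -0.17 for miR-132-3p (95% interval -0.51 to 0.17), -0.24 for miR-132-5p (-0.64 to 0.15), -0.06 for miR-212-3p (-0.38 to 0.27) and -0.12 for miR-212-5p (-0.43 to 0.21), with edgeR adjusted p-values of 0.468 to 0.848. Without sham 2, miR-132-5p was at 0.01 and miR-212-3p at 0.04. With 1 library left out they ran from -0.413 to 0.014 and from -0.164 to 0.041. Over the other settings of the fit they ran from -0.468 to -0.186 and from -0.129 to 0.055. The count over all miRNAs was 6 without sham 4, 15 without ICH 3 or ICH 5, 18 without sham 5, 21 without any 1 of BYHWD 2, 4 and 5, 32 without ICH 2 and 93 without sham 3. Over the 4 comparisons, the 95% intervals of the 4 miRNAs ran from -0.78 to 0.39, so each interval lay inside a change of 1 on the log2 scale either way.

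**Figure D2:**
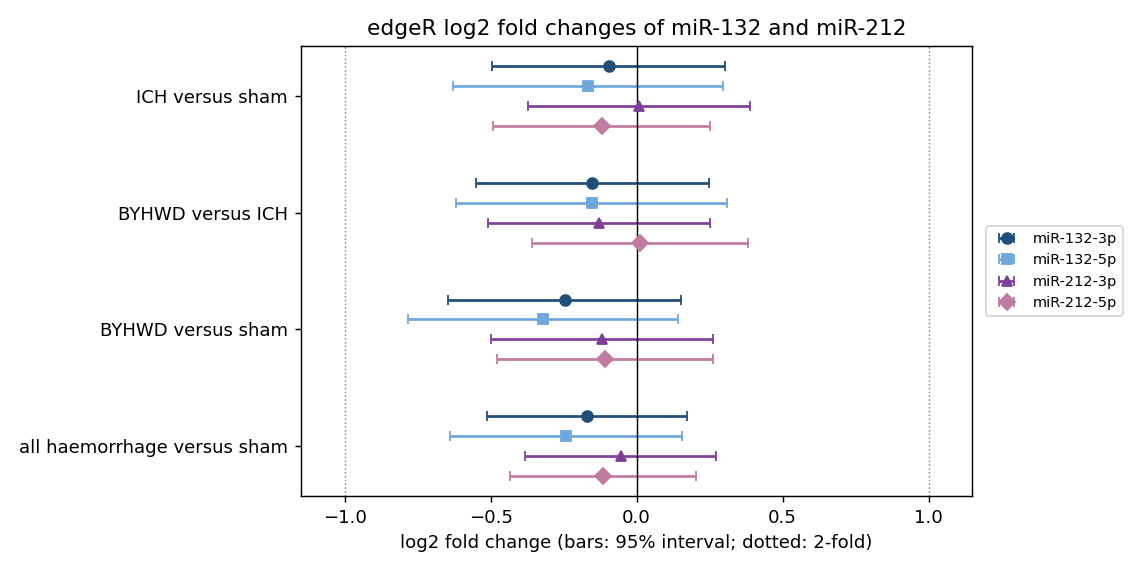
Log2 fold change of each of the 4 miRNAs (x axis, bars 95% interval from the edgeR fit of all 15 libraries) in the 4 comparisons (y axis), with dotted lines at a log2 change of 1 either way. All intervals include 0, the lowest bound being -0.78 for miR-132-5p in BYHWD against sham.

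The arms of each hairpin were used unequally, and in opposite ways. The 3p arm made up 58.2% ± 4.92 of the miR-132 reads in sham, 58.5% ± 3.21 in ICH and 58.6% ± 3.49 in BYHWD (SD, n = 5 each). It was the larger share in all 15 libraries, from 53.1% in sham 2 to 63.8% in sham 4. For miR-212 the 3p arm was the smaller share in all 15 libraries, at 25.3% ± 1.88 in sham, 26.5% ± 1.64 in ICH and 24.9% ± 2.20 in BYHWD, with a range of 22.0% in BYHWD 3 to 29.3% in ICH 1. The libraries spread more widely than counting error, since the widest 95% Wilson interval of a single library covered 2.18 percentage points for miR-132 and 3.52 for miR-212. These intervals cover counting error only, because PCR reads without molecular identifiers are not independent molecules.

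The group difference in arm use was tested on the log2 ratio of 3p to 5p within each library, which does not depend on scaling. For miR-132 the ratio averaged 0.48 in sham, 0.50 in ICH and 0.50 in BYHWD. Sham libraries 1 to 5 had ratios of 0.19, 0.18, 0.52, 0.82 and 0.70, so the libraries that stood apart, sham 4 and sham 5, were the highest. Without them the ratio was higher than in sham by 0.20 in ICH and by 0.21 in BYHWD, against 0.01 and 0.02 with them, and the exact permutation p-values without them were 0.196 and 0.179 (5 against 3 libraries). For miR-212 it averaged -1.57 in sham, -1.47 in ICH and -1.60 in BYHWD. The ICH ratio of miR-212 exceeded that of sham by 0.09 (SE 0.08, two-sided exact permutation p = 0.294), and BYHWD was below ICH by the difference -0.13 (SE 0.09, exact permutation p = 0.23). In all, 28 ratio tests were run in this family, each with an adjusted p of 0.96, where 5 against 5 libraries allow a p of 0.00794 at the lowest. With 28 tests, a single ratio at that lowest p would not have reached an adjusted p under 0.05. The adjusted p-values therefore could not have called a change in a single ratio of 5 against 5 libraries.

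**Figure D3:**
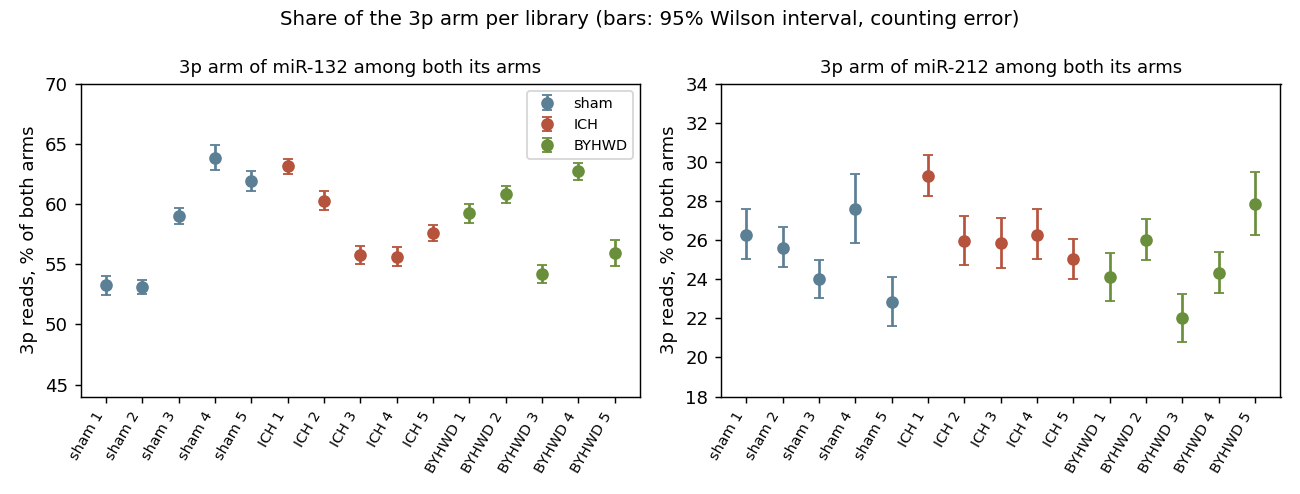
Share of 3p reads among the reads of both arms (y axis, %, axes do not start at 0) in each library (x axis), with 95% Wilson intervals for counting error, for miR-132 (left) and miR-212 (right). The 3p arm is above 53% for miR-132 and below 30% for miR-212 in all 15 libraries, and the groups overlap.

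Since miR-132-3p and miR-212-3p share the seed printed above, their summed level gives the reads with that seed. The sum was 1613 ± 428 CPM in sham (1144 to 2205), 1523 ± 343 in ICH (1283 to 2074) and 1375 ± 194 in BYHWD (1068 to 1576), and the ranges overlapped (SD, n = 5 each). miR-212-3p gave 11.5% ± 0.788 of these reads in sham, 12.1% ± 0.678 in ICH and 12.4% ± 2.09 in BYHWD, so miR-132-3p made up most of the reads with this seed in all groups. The lowest share was 9.98%, in BYHWD 3, and the highest 15.7%, in BYHWD 5. The log2 ratio of miR-132-3p to miR-212-3p was 2.95 in sham, 2.87 in ICH and 2.84 in BYHWD, with an exact permutation p of 0.254 for ICH against sham. Over all 4 products, the miR-212 arms were 23.0% of reads in sham, 23.3% in ICH and 24.9% in BYHWD.

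Across the 15 libraries the 4 products varied together to different degrees. The log2 CPM values of miR-132-3p and miR-212-5p had a Pearson r of 0.871 and a Spearman coefficient of 0.918, with adjusted permutation p-values of 0.00018 and 6e-05. The unadjusted p of that Spearman coefficient, 1e-05, is the smallest that 100000 resamples can give. miR-212-3p and miR-212-5p had r = 0.857 and Spearman's coefficient = 0.836, with adjusted permutation p-values of 0.00024 and 0.00064. miR-132-3p and miR-212-3p had r = 0.83 and Spearman's coefficient = 0.818, with adjusted permutation p-values of 0.00036 and 0.00064. miR-132-3p and miR-132-5p, the arms of 1 hairpin, had r = 0.803 and Spearman's coefficient = 0.75, with adjusted permutation p-values of 0.000405 and 0.00274.

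The relations of miR-132-5p to the miR-212 arms were weaker in value. With miR-212-5p, r was 0.68 and Spearman's coefficient 0.582 (adjusted permutation p-values of 0.00652 and 0.0298), and with miR-212-3p, r was 0.592 and Spearman's coefficient 0.493 (0.0209 and 0.0656). Leaving out the 2 libraries farthest from the median of miR-132-5p, sham 2 and sham 4, brought these r to 0.399 and 0.3. Leaving out the farthest libraries narrows the range and can lower r by itself, so this cannot show whether the relations rested on them. Without sham 4 and sham 5 these r were 0.579 and 0.476. With sham 2 and ICH 1 left out, the 2 farthest for miR-132-3p and for miR-212-3p, the other 4 relations had r of 0.684 to 0.862. After each group's own mean was taken off, r was 0.893 for miR-132-3p with miR-212-5p and 0.575 for miR-132-5p with miR-212-3p. In all, 6 relations were computed, and libraries share a scaling factor that enters each value.

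**Figure D4:**
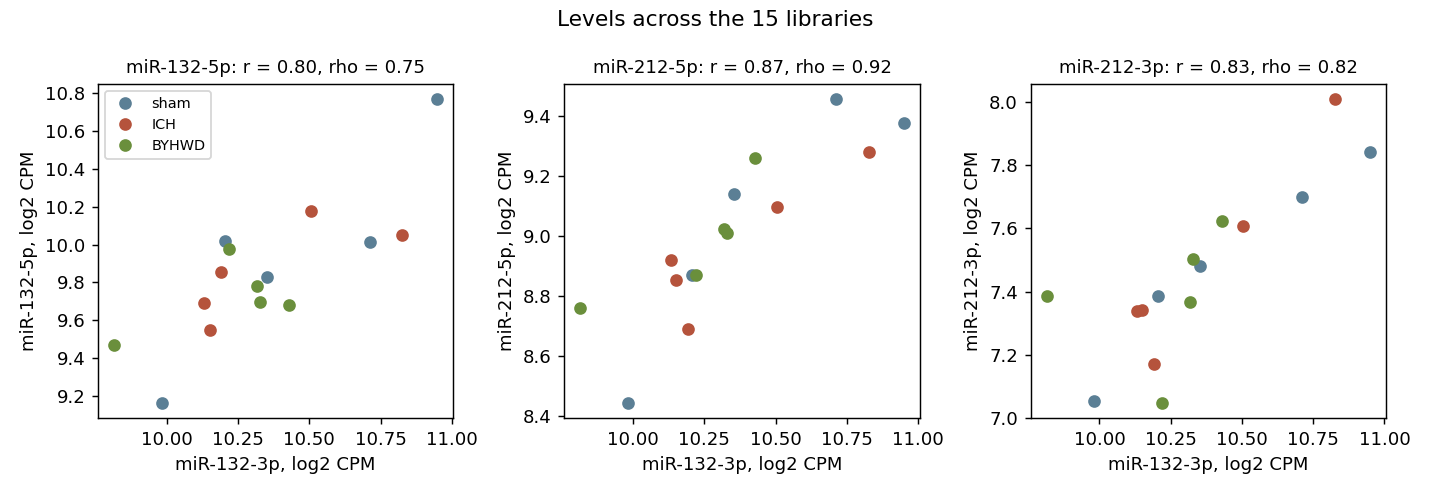
Log2 CPM of miR-132-3p (x axis) against that of the other 3 products (y axis, 1 panel each), 1 point per library, coloured by group. Points rise together in each panel, with r of 0.803 for miR-132-5p, 0.83 for miR-212-3p and 0.871 for miR-212-5p.

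Among the 419 miRNAs that averaged 10 CPM or more, the 5 most like miR-132-3p over the 15 libraries were miR-212-5p (r = 0.871), miR-193b-3p (0.859), miR-139-5p (0.854), miR-139-3p (0.852) and miR-212-3p (0.83). Its own 5p arm ranked 8 by Pearson r. The Spearman coefficient of that arm, 0.75, was above those of miR-193b-3p (0.7), miR-139-5p (0.664) and miR-139-3p (0.696). The 5 most like miR-212-3p were miR-212-5p (0.857), miR-484 (0.854), miR-132-3p (0.83), miR-378a-5p (0.825) and miR-337-3p (0.821), with miR-132-5p at rank 29. This is a description of these libraries, and the libraries shared 1 scaling for all names.

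A list of 18 miRNAs known at synapses or in neuronal activity gave the setting of the locus. Of its 18 members, 0 were called in each of the 4 comparisons (in the order above), where 0.767%, 0%, 2.30% and 7.67% of all miRNAs were called. Its medians were -0.14, -0.05, -0.10 and -0.12 beside -0.02, 0.00, 0.02 and -0.01 over all miRNAs. The values were below 0 in 12, 12, 11 and 12 of the 18. Over the alternatives up to 3 members were lower (by DESeq2) and up to 2 higher (without sham 3) in all haemorrhage against sham. In both settings the count over all miRNAs was also higher than in the main fit. The 4 most abundant were miR-26a-5p, miR-381-3p, miR-218-5p and miR-125b-5p, and ICH against sham gave log2 values of -0.06, 0.24, -0.06 and -0.24, with edgeR adjusted p-values of 0.835, 0.438, 0.907 and 0.341.

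Markers of the cell types that the tissue could hold stood as follows. Of 11 neuron miRNAs, 4 of them also on the synapse list, 0 were called in the 3 pairwise comparisons, and 1 was called in all haemorrhage against sham, where 7.67% of all miRNAs were called. That was miR-124-5p, at 342.8 ± 102 CPM in sham, 225.8 ± 12.9 in ICH and 225.01 ± 46.7 in BYHWD (SD, n = 5 each), which fell by 0.60 on the log2 scale (SE 0.16, edgeR adjusted p = 0.0351). It was not called in 9 of 27 alternatives, among them voom, the replicate block, library totals and the fits without BYHWD 4, ICH 3, ICH 5, sham 4 or sham 5, and its adjusted p ran from 0.00782 to 0.259 over the 27. Over the alternatives, 0 to 2 neuron miRNAs were lower in ICH against sham and 0 to 2 in BYHWD against sham. In all haemorrhage against sham 0 to 3 were lower, with 3 by DESeq2 and without sham 3, among others. The count over all miRNAs also rose by DESeq2 and without sham 3 in each comparison against sham. None of the list was higher in any alternative. The list's medians were -0.22, -0.07, -0.22 and -0.22 in the 4 comparisons, with 8, 7, 10 and 9 of 11 members below 0. The 2 most abundant neuron miRNAs, miR-9-5p and miR-128-3p, had log2 values of 0.04 and 0.25 in ICH against sham. The list's summed level ran from 132220.0 to 159270.0 CPM in sham, 135270.0 to 167400.0 in ICH and 105750.0 to 158380.0 in BYHWD, which overlap. Most of this sum was miR-9-5p, at a mean of 101890 CPM in sham, 104490 in ICH and 99842 in BYHWD. The sum therefore says little about the less abundant members. Relative to the mean log2 level of this list, each of the 4 products differed by at most 0.155 on the log2 scale between the groups compared, with exact permutation p-values of 0.333 or more. Without sham 4 and sham 5, miR-132-5p was lower relative to the list by the difference -0.26 in BYHWD against sham (exact permutation p = 0.107), compared with -0.03 with them.

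The shares called over all miRNAs, beside which the next counts stand, were 0.767%, 0%, 2.30% and 7.67% in the 4 comparisons. The counts over all miRNAs also moved with the setting, and rose by DESeq2 and without sham 3 in each comparison against sham. Of 7 myeloid and leukocyte miRNAs, 3 were higher in ICH against sham, 0 changed in BYHWD against ICH, 3 were higher in BYHWD against sham and 5 in all haemorrhage against sham. The 3 higher in each haemorrhage group were miR-142a-3p, miR-147-3p and miR-155-5p, and miR-142a-5p and miR-223-3p joined them in the comparison of all haemorrhage. Over the alternatives, 2 to 5 were higher in ICH against sham, 2 to 4 in BYHWD against sham and 3 to 5 in all haemorrhage against sham. In the last, the count was 3 by voom, with the replicate block, and without BYHWD 5, ICH 2, ICH 3, ICH 5, sham 1, sham 2 or sham 4. In BYHWD against sham it was 2 without sham 4, without both sham 4 and sham 5, and at a mean of 10 CPM or more. That filter left only 4 of the 7 in the test. It alone gave the 2 in ICH against sham, and it gave 3 in all haemorrhage against sham. Their summed level ran from 304.4 to 426.0 CPM in sham, 534.1 to 746.4 in ICH and 361.3 to 822.2 in BYHWD. The 2 most abundant, miR-142a-5p and miR-150-5p, had log2 values of 1.05 (adjusted p = 0.0343) and 0.06 in all haemorrhage against sham by edgeR. Of 4 fibroblast miRNAs, 0, 0, 2 and 4 were higher in the 4 comparisons, with sums of 155.1 to 241.0 CPM in sham, 193.2 to 526.5 in ICH and 269.1 to 547.7 in BYHWD, and with miR-199a-3p and miR-199a-5p the most abundant. These calls depended on the setting, with 0 to 4 higher over the alternatives both in BYHWD against sham and in all haemorrhage against sham. The count in all haemorrhage against sham was 0 by voom, with the replicate block, without sham 4 and without both sham 4 and sham 5. It was 1 without BYHWD 2, BYHWD 4, BYHWD 5, ICH 2, ICH 3, ICH 5 or sham 5. In BYHWD against sham it was 0 by voom and without BYHWD 5, sham 4, sham 5 or both of these sham libraries. None were called for the lists of oligodendrocytes (most abundant miR-219a-2-3p, then miR-338-5p), red cells (miR-451a and miR-486a-5p), vessels (miR-143-3p and miR-126a-3p) and choroid plexus (miR-1298-5p and miR-204-5p). The choroid plexus sum spread widely within groups, from 1764 to 18114 CPM in sham, 1941 to 17370 in ICH and 5870 to 15157 in BYHWD. The oligodendrocyte sum ran from 7152.5 to 24226 CPM in sham, 9595 to 11267 in ICH and 8967 to 10416 in BYHWD. Without sham 3, 1 vessel miRNA was called higher in each comparison against sham. Without sham 1, miR-219a-2-3p was called lower in all haemorrhage against sham. The red cell and choroid plexus lists had no call under any alternative. The part of these cell types in the levels of miR-132 and miR-212 was not tested.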

How the data were processed

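Small RNA libraries of 15 mouse brain samples were made with the NEBNext kit after selection for 15 to 35 nt, per the labels' protocols. The deposited tables hold whole-number read counts per mature miRNA, not normalized. Per the submitters' processing notes, cutadapt, Bowtie and edgeR were used, with no versions given in the sources used here, and the build named is hg38, a human assembly, although the miRNA names are mouse. No source used here says how reads matching several loci were counted.

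Each table holds 929 count values and 928 names, and in 15 of 15 tables the first value is the library number, so names were moved by 1 row. Of neighbouring entries with the same name, 204 of 226 (90.3%) then differed by at most 0.1 in log2 count, compared with 138 of 230 (60%) as printed. Where a name occurs on more than 1 row (76 names), the one with the highest total was kept.

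The test was the robust quasi-likelihood F-test of edgeR 4.0.16 (TMM, filterByExpr; R 4.3.3), fitted to the 15 libraries together, with Benjamini-Hochberg adjustment over 652 miRNAs, and calls at an adjusted p under 0.05. DESeq2 1.42.0 and limma 3.58.1 (voom with quality weights) were alternatives, beside other scaling, filters, handling of repeated names, groups in the fit, a replicate block and libraries left out. Library totals without scaling factors were added after the TMM factors were seen, and list counts under each alternative after the lists' own counts. CPM means use TMM, and log2 CPM for correlations a prior count of 2. Within-library log2 ratios (prior count 0.5) were compared by two-sided exact permutation tests with SciPy 1.17.1, and correlations by 100000 permutations. Scripts were tested on simulated data. The named miRNAs are the 4 members, the 5 most correlated with each 3p arm, the called or else the 4 most abundant of the synapse list and the 2 most abundant of each marker list, plus miR-124-5p, named after its values were seen. The members and lists were chosen with earlier results of these data known. The labels give 5 mice per group and name no batch. The p-values measure the spread between libraries, in which differences between mice, dissections and library preparations cannot be told apart.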

Additional observations from a re-analysis of the deposited data

How the results depend on the processing

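None of the 4 miRNAs was called under any alternative (240 values with 1 library left out, 204 under other settings; lowest adjusted p 0.151), but 19 and 14 of these changed sign. miR-212-3p in ICH against sham, 0.01 in the report, was -0.019 by DESeq2 and RLE, -0.044 with all entries kept, -0.047 by voom, -0.02 with entries summed, -0.067 without sham 4 and 5 and -0.005 with the replicate block. miR-212-5p in BYHWD against ICH was -0.002 without the filter and -0.064 with upper-quartile factors. On library totals, which moved the median of all miRNAs by 0.105, 0.027, 0.133 and 0.118 in the 4 comparisons, miR-132-3p was 0.001 in ICH against sham, miR-212-3p 0.006 in BYHWD against sham and 0.055 in all haemorrhage against sham, and miR-212-5p 0.02 and 0.00. The cause was not tested.

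With 1 library left out, log2 values ran from -0.245 to 0.052 for miR-132-3p, -0.326 to 0.091 for miR-132-5p and -0.158 to 0.105 for miR-212-3p in ICH against sham, from -0.373 to -0.099 for miR-132-3p and -0.499 to -0.063 for miR-132-5p in BYHWD against sham, from -0.413 to 0.014 for miR-132-5p and -0.164 to 0.041 for miR-212-3p in all haemorrhage against sham, and from -0.204 to 0.003 for miR-212-3p and -0.063 to 0.074 for miR-212-5p in BYHWD against ICH. Ratios changed sign in 46 of 315 such values and 3 of 49 others, with no adjusted p under 0.862. In the order ICH against sham, BYHWD against ICH, BYHWD against sham and all haemorrhage against sham, the ratio of miR-132-3p to miR-132-5p ran from -0.062 to 0.098, -0.057 to 0.076, -0.056 to 0.104 and -0.059 to 0.101, and that of miR-132-3p to the neuron list from -0.023 to 0.135, -0.135 to 0.009, -0.103 to 0.055 and -0.063 to 0.095. The ratio of miR-132-5p to the list ran from -0.122 to 0.195, -0.131 to -0.042, -0.207 to 0.109 and -0.165 to 0.152. miR-212-3p to miR-212-5p ran from -0.089 to 0.024 in BYHWD against sham and -0.017 to 0.074 in all haemorrhage against sham. In BYHWD against ICH, miR-132-3p to miR-212-3p ran from -0.114 to 0.072 and miR-212-3p to the list from -0.135 to 0.057. miR-212-5p to the list ran from -0.073 to 0.156 in ICH against sham and -0.036 to 0.194 in all haemorrhage against sham. Without sham 4 and 5, the ratio to the list was -0.012 for miR-132-3p in all haemorrhage against sham, and -0.172, -0.257 and -0.215 for miR-132-5p in ICH, BYHWD and all haemorrhage against sham.

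Counts over all miRNAs depended on the settings. ICH against sham (5) gave 48 by DESeq2, 3 at 10 CPM or more, 8 without robust estimation, 10 with upper-quartile factors and 9 on library totals. BYHWD against sham (15) gave 52 by DESeq2, 23 with all entries, 7 by voom, 9 in a fit of those groups only, 9 with the replicate block and 7 without sham 4 and 5. All haemorrhage against sham (50) gave 84 by DESeq2, 5 by voom, 5 with the block, 12 without sham 4 and 5 and 32 on library totals. With 1 library left out these counts ran from 4 to 31, 2 to 54 and 6 to 93. In same-numbered libraries of different groups, deviations from the group means had r of -0.429 to 0.217, with 3 of 15 pairs over 0.1. Differently numbered pairs were not set beside them and the labels name no pairing. These values therefore cannot settle whether the numbers pair the samples. Depth gave miR-212-3p, the least abundant of the 4, at least 684 reads in each library.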
